A study of Mus musculus with 4 samples.

Results

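The subject here is the difference between 2 stage changes: how far gene expression moved over 3 days of differentiation in Seh1-depleted neural stem cells, minus how far it moved in control cells. The study used primary neural stem cells from the cortex of newborn mice and sequenced total RNA from 4 cultures, 1 library per group. Ctrl cells had the genotype Seh1 f/f, in which both copies of the gene carry recombination sites. The iKO cells had the same floxed alleles together with cmv-cre-ert, a Cre recombinase fused to an estrogen receptor domain and named with the CMV promoter. Each genotype was sampled at day 0 in growth medium with EGF and bFGF and at day 3 in differentiation medium, after both factors had been withdrawn. All 4 groups therefore share the floxed alleles, and the sources used here do not give the time or dose of an inducer, the number of animals or any pooling.

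For every gene, expected counts were summed over transcripts and scaled with TMM factors to CPM, the usual unit for a count relative to its library's size. The stage change is the log2 ratio of day 3 to day 0, each as CPM + 1. The difference is the stage change in iKO minus that in Ctrl, which equals the log2 ratio of iKO to Ctrl at day 3 minus that ratio at day 0. Of 17621 genes, 12976 averaged 1 CPM or more across all libraries and entered the comparison. Just inside that minimum lay Tmc8 (mean 1.0004 CPM, difference -0.89), and just outside it lay C1s2 (mean 0.9988 CPM, difference -0.81). A gene counts as higher or lower here when its 2 stage changes differ by at least 2-fold, a log2 difference of 1. The same 2-fold step is used for "rose" and "fell" between days, and "from" and "to" stand for day 0 and day 3. No replicate exists in any group, so no p-value was computed. The printed 95% intervals cover counting error only. They belong to the ratio of ratios of the counts without the added 1 CPM, and for low genes they can lie beyond the printed difference. Spread between cultures is unknown, and an effect of Seh1 loss cannot be told apart from other lasting differences between the Ctrl and iKO cultures.

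Neural stem cells of the newborn cortex divide under EGF and bFGF, which act through receptor kinases and the ERK pathway. When the factors are removed the cells leave the cycle and give rise to astrocytes, oligodendrocyte lineage cells and, in smaller part, neurons. The protein Seh1 is part of the Y complex, the unit that builds the rings of the nuclear pore, and also belongs to GATOR2, a regulator of the nutrient sensor mTORC1. A gene can take part in the difference between stage changes in several ways: a rise of Ctrl may be lost, a fall may be lost, or iKO may gain a rise or a fall of its own.

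Library totals lay between 19611788 and 21040590 expected counts. Seh1l (gene ID 72124, chromosome 18, 67774876 to 67795487, GRCm38.p6) went from 40.3 to 33.2 CPM in Ctrl and from 19.2 to 11.0 CPM in iKO. Both iKO libraries lay below both Ctrl libraries, and the stage change differed by -0.48 (interval -0.81 to -0.24), under 2-fold. Esr1, the estrogen receptor gene, had 1 and 2 counts in the Ctrl libraries and 1924 and 2311 in the iKO libraries, which carry cre-ert. Markers of other cells that such a culture could hold were low. Summed over the list, microglial markers read 3.40 to 12.1 CPM, endothelial markers 1.69 to 4.03 CPM and fibroblast and mural markers 7.83 to 20.4 CPM in the 4 libraries. None of these markers was at 0 in all libraries. Ependymal and motile cilia genes summed to 120 and 201 CPM in Ctrl and to 183 and 413 CPM in iKO, and their part in the results was not tested. The neural stem and progenitor genes summed to between 5605 and 6764 CPM.

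Depleted cells kept the outline of the stage change and moved less. The 2 stage changes, which share no library, correlated across genes with a Pearson r of 0.84 and a Spearman rho of 0.80. Genes are no independent replicates. The SD over genes was 1.15 in Ctrl and 0.97 in iKO. In Ctrl 1892 genes rose (14.6% of those measured) and 1955 fell (15.1%). In iKO 1459 rose (11.2%) and 1487 fell (11.5%). Of the genes that rose in Ctrl, 1044 (55.2%) also rose in iKO, with a median of 1.48 in Ctrl and 1.09 in iKO. Of those that fell in Ctrl, 1176 (60.2%) also fell in iKO, with medians of -1.5 and -1.17. Genes chosen for a large change in Ctrl tend to read smaller in any other pair of libraries, so these medians are descriptions.

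**Figure D1:**
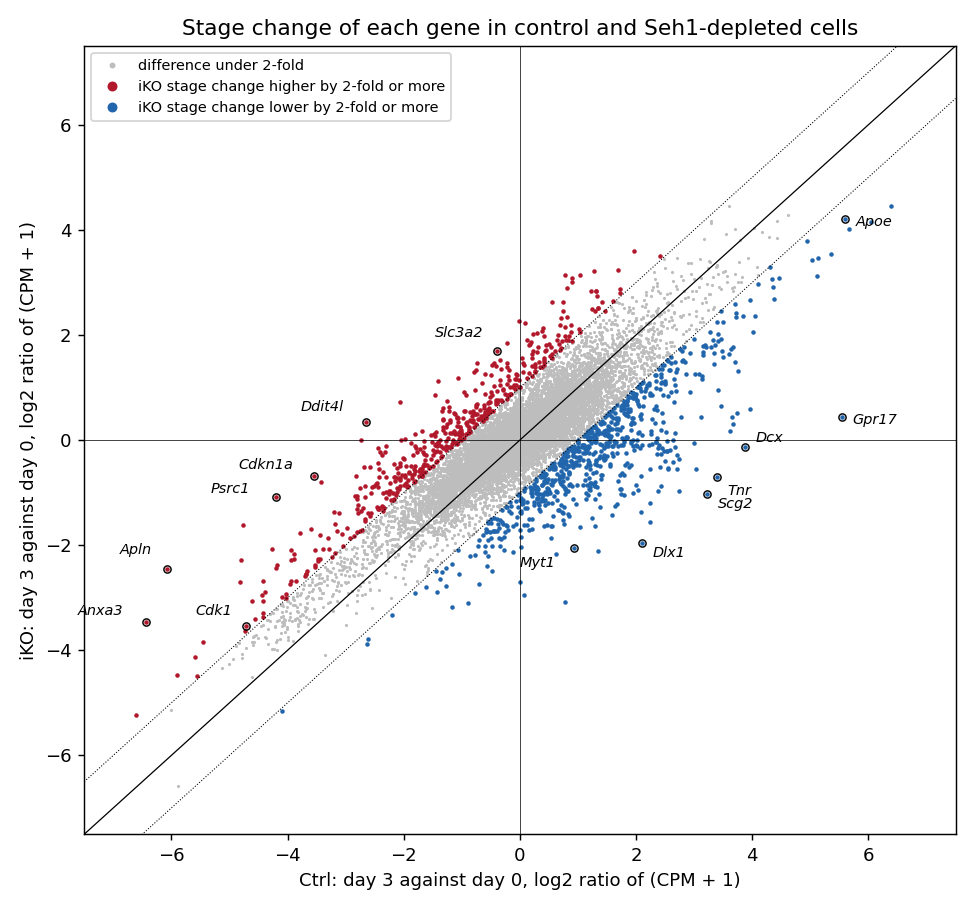
Stage change of 12976 genes in Ctrl (horizontal axis) and iKO (vertical axis), each the log2 ratio of day 3 to day 0 in CPM + 1, 1 library per group. The solid line marks equal stage changes and the dotted lines a 2-fold difference. Gpr17, Tnr, Dcx, Scg2 and Dlx1 lie far below the solid line, and Apln, Psrc1, Cdkn1a and Ddit4l far above it.

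The stage change was at least 2-fold higher in iKO for 481 genes (3.71% of those measured) and lower for 714 (5.5%), 1195 in all (9.21%). Higher genes were 40.3% of the genes past 2-fold, and 23.6% when library totals replaced TMM scaling. Of the higher genes named below, Slc2a1, Ldha, Rps27l, Aaas, Bst2, Gria3, Tnfrsf10b, Lfng, Jag1 and Bmp7 were under 2-fold with library totals, as were those given with that value. The counting interval left out 0 for 1147 of the 1195 genes and left out every difference under 2-fold for 705. Genes past 2-fold had a median level of 13.4 CPM, against 34.5 CPM over all genes, so low genes are overrepresented. By pattern, a rise of Ctrl was lost in iKO for 325 genes (2.5%), was smaller for 92 (0.709%) and turned to a fall for 20 (0.154%). A fall was lost for 178 genes (1.37%), was smaller for 95 (0.732%) and turned to a rise for 2 (0.0154%), Gm29801 and Klhdc7a. Changes of iKO's own were fewer: 101 genes gained a rise (0.778%), 20 had a larger one (0.154%), 133 gained a fall (1.02%) and 16 had a larger one (0.123%). Within 2-fold in each genotype stayed 85 higher genes (0.655%) and 128 lower genes (0.986%). Of all measured genes 55.7% had a difference above 0 and 44.3% one below 0, the background for the counts of list members on either side. Likewise, 3.71% higher and 5.5% lower are the background for every count of list members past 2-fold. These patterns are built from the same 4 values as the difference itself.

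Genes of the oligodendrocyte lineage lost their rise, with the lowest median of all lists. Oligodendrocyte precursors arise from neural progenitors, respond to PDGF through Pdgfra, and pass through a committed stage marked by Gpr17 before they make myelin. Of 16 measured precursor genes, 12 were lower (75%, against 5.5% of all genes) and none higher, and the median difference was -2.68 against 0.06 over all genes. Their median stage change was 2.09 in Ctrl and -0.39 in iKO. In bulk RNA, fewer cells of a type and less RNA per cell cannot be told apart.

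Gpr17 (gene ID 574402, chromosome 18, 31942999 to 31949890), the receptor of committed precursors, went from 7.06 to 376 CPM in Ctrl and from 2.27 to 3.44 CPM in iKO. The day 3 Ctrl library stood far above the others, a 53.2-fold rise against 1.52-fold in iKO. Its difference of -5.10 (interval -5.75 to -4.52) was the lowest of all measured genes. Tnr (chromosome 1, 159523729 to 159931729) encodes tenascin R, a matrix protein of precursors and of nets around neurons. It went from 70.6 to 751 CPM in Ctrl and from 54.7 to 33.1 CPM in iKO, a difference of -4.10. Ctrl rose 10.6-fold, while iKO ended below its own start, by less than 2-fold.

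A transcription factor and a growth factor receptor of the lineage went the same way. Sox10, the transcription factor, went from 23.7 to 132 CPM in Ctrl and from 7.57 to 6.15 CPM in iKO. Ctrl rose and iKO stayed near its start, which was already below that of Ctrl. Pdgfra, the PDGF receptor, went from 41.8 to 128 CPM in Ctrl and from 15.8 to 5.25 CPM in iKO. It rose in Ctrl and fell in iKO, with a difference of -3.02 (interval -3.56 to -2.86). Plxnb3, a plexin receptor (difference -3.60), and Enpp6, a phosphodiesterase of newly forming oligodendrocytes (-3.37), also lost their rise.

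Other members of the precursor list did not share the loss. Olig1 and Olig2, transcription factors that cortical progenitors in culture express too, had differences of 0.06 and -0.29. Olig1 went from 2862 to 2814 CPM in Ctrl and from 2648 to 2717 CPM in iKO, so all libraries lay close together. Ptprz1 (-0.29) and Nkx2-2 (-0.46) completed the members under 2-fold. Olig1 and Olig2 are named after their values were seen, as are Ptprz1 and Nkx2-2.

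Myelin genes showed the same loss with 2 exceptions. Of 10 measured, 8 were lower and none higher (median -1.60), with median stage changes of 1.71 in Ctrl and 0.31 in iKO. Myrf, the transcription factor that switches on myelin genes, went from 8.71 to 48.2 CPM in Ctrl and from 9.54 to 9.22 CPM in iKO. Only the day 3 Ctrl library was raised. Enzymes of myelin lipid synthesis stood beside it: Fa2h, which hydroxylates fatty acids, differed by -3.22, Gal3st1, which makes sulfatide, by -2.75, and Ugt8a, which makes galactosylceramide, by -2.12.

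Mbp, myelin basic protein, was a member that kept its rise, going from 32.3 to 97.1 CPM in Ctrl and from 15.5 to 45.3 CPM in iKO. Its difference was -0.08 (interval -0.27 to 0.18), with iKO below Ctrl at both days. Mag, an adhesion protein of myelin named after its values were seen, differed by -0.56 with an interval of -1.18 to 0.38.

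**Figure D2:**
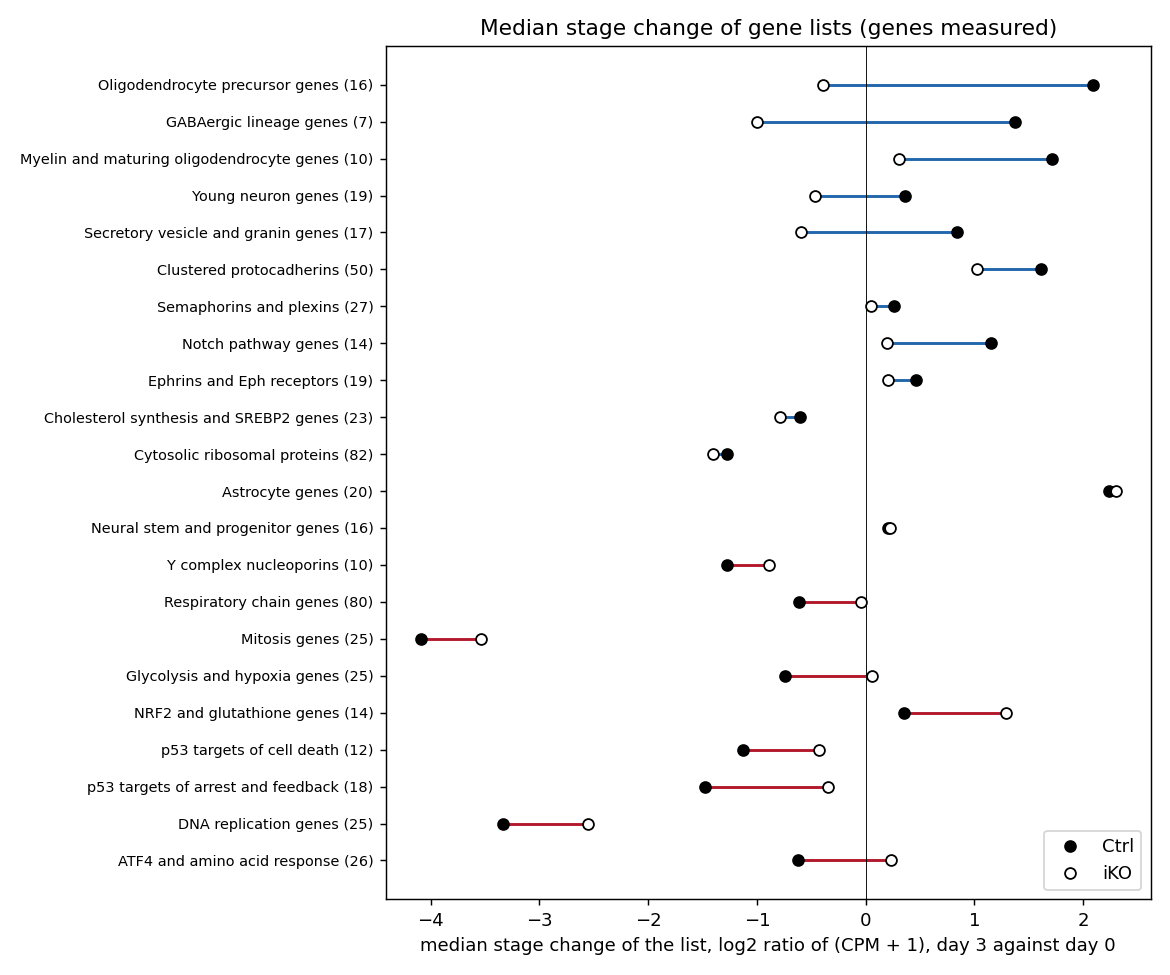
Median stage change of 22 gene lists in Ctrl (filled circles) and iKO (open circles), log2 ratio of day 3 to day 0, with the number of genes measured in brackets, sorted by the median difference per gene. Blue lines join lists whose median difference lies below 0 and red lines those above 0. Precursor, GABAergic and young neuron lists cross from above 0 in Ctrl to below 0 in iKO, whereas the astrocyte medians of 2.24 and 2.30 nearly coincide.

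The astrocyte rise was retained. Among 20 genes of astrocytes, 2 were higher and 3 were lower. The list had a median difference of -0.05 that read 0.05 under 1 alternative setting, and median stage changes of 2.24 in Ctrl and 2.30 in iKO. Aqp4, the water channel of astrocyte end feet, went from 20.6 to 388 CPM in Ctrl and from 48.4 to 767 CPM in iKO. It rose in both genotypes and iKO lay above Ctrl at both days, so its difference was -0.21. Gja1, the gap junction protein connexin 43, went from 69.4 to 573 CPM in Ctrl and from 133 to 959 CPM in iKO (difference -0.19). S100b differed by -0.09.

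The 3 lower genes were Gfap, the astrocyte intermediate filament (-1.60), Apoe, a lipid carrier (-1.40), and Aldh1l1, an enzyme of folate metabolism (-1.12). Gfap went from 3.93 to 160 CPM in Ctrl and from 17.1 to 194 CPM in iKO. The iKO library began higher and ended near Ctrl, so a smaller stage change went with a higher start. Apoe also began higher in iKO and stayed above Ctrl, going from 138 to 6765 CPM in Ctrl and from 656 to 12096 CPM in iKO. The cholesterol exporters Abca1 and Abcg1 differed by -1.31 and -1.36. Higher were Cd44, a hyaluronan receptor (1.84), and Id3 (1.34). Unlike most of the list, Cd44 fell in Ctrl, from 86.2 CPM to 11.9 CPM, and went from 93.9 CPM to 49.3 CPM in iKO.

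Genes of young neurons were lower as well. Of 19 measured, 10 were lower and none higher (median -1.18), with median stage changes of 0.36 in Ctrl and -0.47 in iKO. Dcx (chromosome X, 143855842 to 143933396), a microtubule protein of migrating neurons, went from 9.10 to 147 CPM in Ctrl and from 17.0 to 15.4 CPM in iKO. Ctrl rose 16.2-fold and iKO stayed near its start, which was above that of Ctrl. Tubb3, the neuronal beta tubulin, went from 11.8 to 71.0 CPM in Ctrl and from 20.6 to 15.5 CPM in iKO (difference -2.89). Ina, a neurofilament protein, differed by -2.16 and Rbfox3, a splicing factor of maturing neurons, by -1.79. Stmn2 fell in both genotypes and differed by -0.97, with 0.0995 CPM in the day 3 Ctrl library. Without the added 1 CPM the log2 ratio of ratios was 0.70 (interval -1.57 to 3.96), so Stmn2 gave no direction.

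Genes of the GABAergic lineage were lower too. All 7 measured genes lay below 0 and 5 were lower, with a median difference of -2.14 and median stage changes of 1.37 in Ctrl and -1.0 in iKO. Dlx1, a homeobox factor of inhibitory interneuron precursors, went from 7.48 to 35.2 CPM in Ctrl and from 14.1 to 2.92 CPM in iKO. Ctrl rose 4.71-fold and iKO fell 4.85-fold, so the order of the genotypes was opposite at the 2 days. Its neighbour Dlx2 followed the same pattern, going from 13.2 to 48.3 CPM in Ctrl and from 17.3 to 7.79 CPM in iKO. Sp9, a zinc finger factor downstream in that lineage, and Gad2, an enzyme that makes GABA, differed by -2.65 and -2.14. Gad1, the second such enzyme, rose in Ctrl and kept within 2-fold in iKO (-1.61, named after its values were seen).

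In all, 20 genes rose in Ctrl and fell in iKO. Besides the Dlx genes they include Celf3, a neuronal splicing factor (from 10.9 to 54.8 CPM in Ctrl and from 17.3 to 5.25 CPM in iKO), Scrt1, a transcriptional repressor of neuronal precursors (-3.44), and Celsr3, an adhesion receptor for axon growth (-3.44). Among proneural and neurogenic factors 4 of 9 were lower and 1 higher. Myt1, a zinc finger factor of early neurons and oligodendrocyte precursors, went from 122 to 233 CPM in Ctrl and from 88.3 to 20.4 CPM in iKO. Ctrl ended higher by less than 2-fold and iKO fell, a difference of -3.0. Sox4 (-1.28), Insm1 (-1.17) and Neurod1 (-1.29) were also lower.

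Notch signalling, by which neighbouring progenitors hold each other back from differentiation, had genes on both sides. Of 14 genes measured, 5 were lower and 2 higher (median -0.43). The ligand Dll3 went from 87.9 to 198 CPM in Ctrl and from 62.8 to 29.9 CPM in iKO, rising in Ctrl and falling in iKO. Dll1 differed by -1.0. The target Hes5, a repressor in progenitors, went from 9.05 to 111 CPM in Ctrl and from 3.95 to 15.1 CPM in iKO, a smaller rise in iKO (-1.77). Hes1, another target and repressor, differed by 0.73, under 2-fold: it went from 38.9 to 16.7 CPM in Ctrl and from 36.5 to 26.7 CPM in iKO. Nrarp, a feedback inhibitor, and the receptor Notch3 differed by -1.37 and -1.34. The ligand Jag1, which fell in Ctrl and not in iKO, was higher (1.14), as was Lfng, an enzyme that adds sugars to Notch receptors (1.01). Dll1, Jag1 and Lfng are named after their values were seen.

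Several genes of regulated secretion were lower beside the neuronal genes. Neurons and endocrine cells pack peptides into dense core vesicles with the granins, and Rab3 GTPases dock vesicles at the membrane. Of 17 genes measured, 6 were lower and 1 higher (median -0.52). Scg2, secretogranin II, went from 1.03 to 18 CPM in Ctrl and from 3.40 to 1.17 CPM in iKO (difference -4.24). Chgb, chromogranin B, went from 4.72 to 32.0 CPM in Ctrl and from 13.3 to 11.3 CPM in iKO (-2.74). In both, only the day 3 Ctrl library stood out, and iKO began above Ctrl. Chga (-1.86), Rab3c (-3.45), the prohormone convertase gene Pcsk2 (-2.16) and Syn1 (-1.68) were the other lower genes. The 1 higher gene was Rab26 (1.37), going from 120 to 0.249 CPM in Ctrl and from 128 to 2.44 CPM in iKO. Chga, Syn1 and Rab26 are named after their values were seen.

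Scg2 and Chgb are shown with the 250 bases before their start sites because each carries a full cyclic AMP response element, TGACGTCA, in capitals below. The sequences are RefSeq promoters of GRCm38.p6, written 5′ to 3′ on the strand of the gene, from chr1:79440027-79440276 (minus strand) and chr2:132781392-132781641 (plus strand).
Scg2: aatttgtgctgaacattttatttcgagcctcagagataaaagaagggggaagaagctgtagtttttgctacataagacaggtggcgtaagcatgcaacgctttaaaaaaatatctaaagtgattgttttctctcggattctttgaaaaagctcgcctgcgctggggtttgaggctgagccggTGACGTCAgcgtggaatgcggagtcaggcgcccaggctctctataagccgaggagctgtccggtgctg
Chgb: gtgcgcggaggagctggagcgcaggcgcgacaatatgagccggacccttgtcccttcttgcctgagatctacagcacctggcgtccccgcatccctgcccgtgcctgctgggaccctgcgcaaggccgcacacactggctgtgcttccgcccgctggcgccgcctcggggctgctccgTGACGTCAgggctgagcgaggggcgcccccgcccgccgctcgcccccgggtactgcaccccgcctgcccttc
The element begins 68 bases before the start of Scg2 and 72 bases before that of Chgb. Searched on both strands of these 250 bases, it was present in 3 of 12 genes of the secretion list with a promoter in the table (25%, with Syn1 the third) and in 3.07% of 10349 measured genes. A match is a description of the letters and says nothing of binding.

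Cell surface genes for adhesion and guidance were lower in part. Of 50 measured clustered protocadherins, homophilic adhesion proteins that give neurons their surface identity, 16 were lower and none higher (median -0.50). The median stage change was 1.61 in Ctrl and 1.02 in iKO. Split by cluster, 4 of 7 alpha genes and 11 of 21 beta genes were lower, and 1 of 22 gamma genes, with medians of -1.36, -1.02 and 0.12. All 21 beta genes lay below 0. Summed over the beta cluster, levels went from 47.7 to 313 CPM in Ctrl and from 66.0 to 185 CPM in iKO. The median stage change of the beta genes was 2.2 in Ctrl and 1.12 in iKO, while the gamma sum went from 1723 to 3760 CPM in Ctrl and from 2136 to 4702 CPM in iKO. Alpha and gamma transcripts share their last exons and beta genes are close copies, so the division of reads within each cluster is uncertain. The split by cluster was made after the values were seen.

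Of 27 semaphorins and plexins, axon guidance ligands and their receptors, 9 were lower and 1 higher (median -0.49). After Plxnb3 the lower ones included Sema6c (-1.45), and the 1 higher gene was Sema3c, a secreted semaphorin, going from 6.89 to 2.29 CPM in Ctrl and from 12.6 to 21.9 CPM in iKO (2.01). Among 19 ephrins and Eph receptors 4 were lower and none higher, led by Epha10 (-2.54) and Ephb1 (-1.94). Of 17 ionotropic glutamate receptor genes 3 were lower and 1 was higher, Gria3 (1.11). Grik3, a kainate receptor subunit, went from 20.7 to 144 CPM in Ctrl and from 12.4 to 5.83 CPM in iKO (-3.71). Grin1, the shared subunit of NMDA receptors, fell in iKO alone, from 25.9 CPM to 2.15 CPM, against 25.4 CPM and 13.2 CPM in Ctrl (-2.19).

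Ion channel and tubulin genes split by member. Of 51 potassium channel genes 7 were lower and 7 higher (median -0.20). Kcnc1, a fast channel and one named after its values were seen, went from 775 to 143 CPM in Ctrl and from 877 to 536 CPM in iKO (1.72). Its fall in Ctrl was lost in iKO. Among 28 sodium and calcium channel genes 6 were lower and 1 higher, with the sodium channel Scn3a lowest (-2.39).

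Of 13 tubulins, the building blocks of microtubules, 2 were lower and 4 higher. Beside Tubb3 stood Tubb4a, an isotype of neurons and oligodendrocytes, which went from 28.5 to 138 CPM in Ctrl and from 30.3 to 20.4 CPM in iKO (-2.78). Higher were Tubb6 (1.75), from 216 to 10.9 CPM in Ctrl and from 212 to 38.4 CPM in iKO, Tuba1c (1.55), Tubb4b (1.54) and Tubb2a (1.35). Tubb4b and Tubb2a are named after their values were seen. Tubulin genes are similar in sequence, so reads may be shared among them.

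Matrix genes divided in the same manner. Vcan, versican, a proteoglycan around precursors and axons, differed by -1.49 and stood with Tnr as the 2 lower genes of 9 in the perineuronal list, where Hapln4, a link protein, was the 1 higher gene (1.02, and 0.84 with library totals). Of 9 fibrous matrix genes 3 were higher and none lower, with a median of -0.10 that had the other sign with a minimum of 5 CPM, a pseudocount of 5 CPM and FPKM. Ogn, a small proteoglycan of connective tissue, went from 0.59 to 1.74 CPM in Ctrl and from 3.12 to 35.5 CPM in iKO (2.36), a rise of iKO alone. Fbln1 (1.41) and Fn1, fibronectin (1.22), fell in Ctrl. Fibroblast and mural markers did not follow Ogn: their sum went from 7.83 to 13.9 CPM in Ctrl and from 20.4 to 10 CPM in iKO. Of 23 collagens 4 were lower (17.4%, against 5.5% of all genes) and 1 higher (4.35%, near the 3.71% of all genes).

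**Figure D3:**
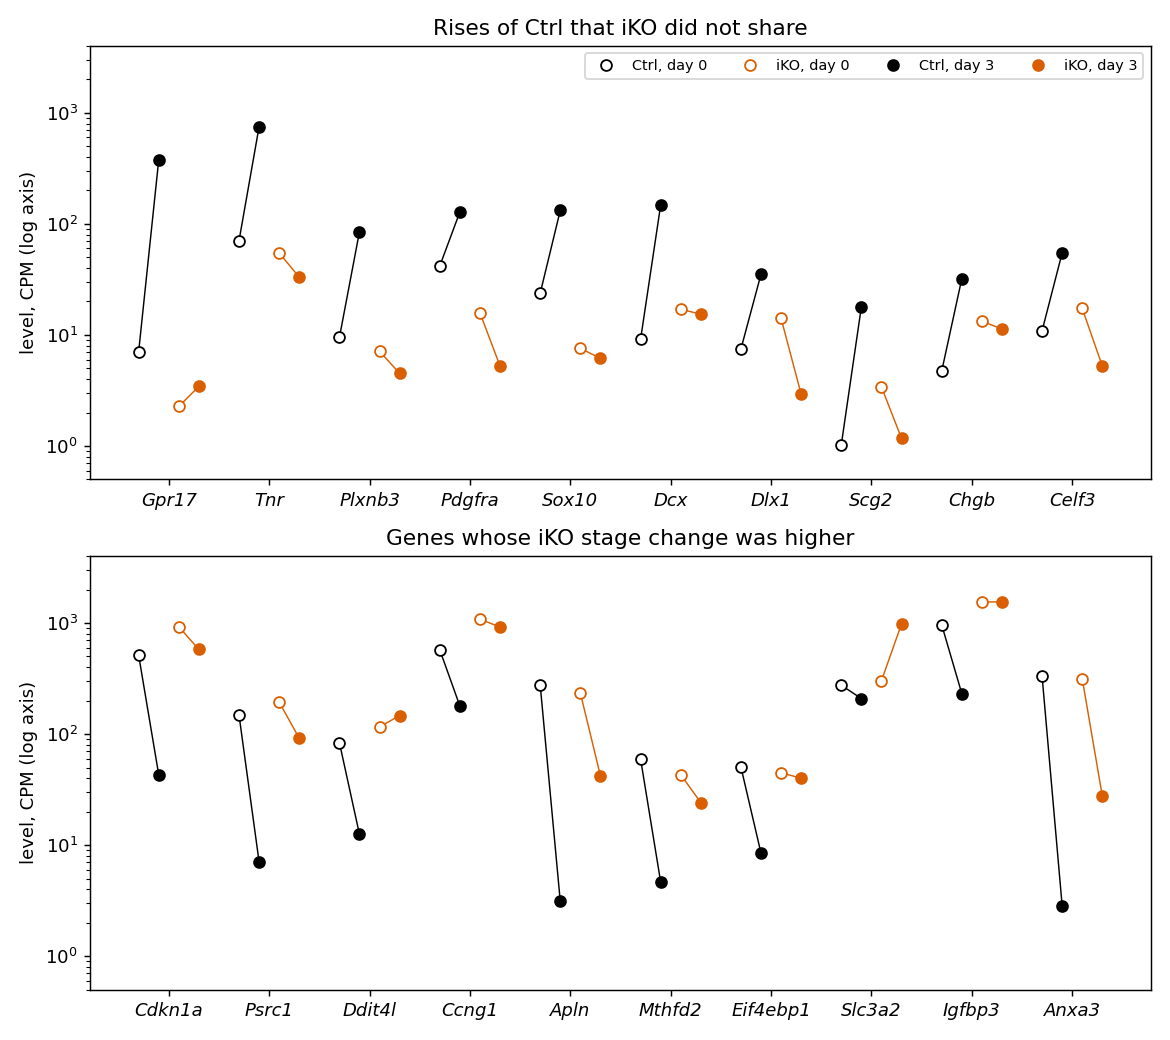
Level of 20 genes in CPM on a log axis in each of the 4 libraries, Ctrl in black and iKO in orange, day 0 open and day 3 filled, lines joining the days of 1 genotype. In the upper panel the filled black point is highest for every gene, as for Gpr17 at 376 CPM against 3.44 CPM in iKO. In the lower panel Ctrl drops further than iKO, as for Cdkn1a at 43.1 CPM and 578 CPM at day 3, or iKO alone gains a rise, as for Slc3a2.

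Falls that iKO did not match included targets of p53, the transcription factor that responds to DNA damage and other stress with cell cycle arrest or death. Of 18 targets for arrest and feedback, 7 were higher and 1 lower (median 0.80), with median stage changes of -1.48 in Ctrl and -0.35 in iKO. In each of the 18 the stage change was smaller in size in iKO than in Ctrl. Of 12 targets for cell death, 5 were higher and 1 lower (median 0.80).

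Cdkn1a (gene ID 12575, chromosome 17, 29090979 to 29100722), which encodes the CDK inhibitor p21, went from 513 to 43.1 CPM in Ctrl and from 926 to 578 CPM in iKO. Ctrl fell 11.9-fold and iKO ended 1.6-fold lower, a difference of 2.86 (interval 2.79 to 3.0). Psrc1, a spindle protein whose gene p53 also regulates, went from 148 to 7.06 CPM in Ctrl and from 194 to 91.6 CPM in iKO (3.13). Ddit4l, an inhibitor of mTORC1, went from 83.7 to 12.5 CPM in Ctrl and from 116 to 147 CPM in iKO (2.99). All of these genes were lowest in the day 3 Ctrl library.

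Gtse1 (2.20), a p53-binding protein of the G2 phase, Phlda3 (1.69), an Akt inhibitor, and Ccng1 (1.44), cyclin G1, were higher too. Among death genes the higher ones were Eda2r (2.01), Pmaip1, which encodes Noxa (1.63), Pidd1 (1.5), Aen (1.30) and Tnfrsf10b (1.03). The lower members were Btg2 (-1.34) and Dapk1 (-1.06), which rose in Ctrl and not in iKO. Counting also those under 2-fold, 3 of 18 arrest and feedback targets and 2 of 12 death targets lay below 0. Mdm2, the main feedback inhibitor of p53, kept a near equal stage change, going from 106 to 69.6 CPM in Ctrl and from 191 to 148 CPM in iKO, a difference of 0.24, with iKO above Ctrl at both days. Btg2, Dapk1, Tnfrsf10b, Phlda3, Ccng1 and Mdm2 are named after their values were seen.

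The Cdkn1a promoter is printed because p21 had the largest difference of the CDK inhibitors and its start region holds the paired cores of p53 sites. Capitals mark CATG, any 6 bases and CATG again, in chr17:29090729-29090978 (plus strand, GRCm38.p6, 1 of 2 start sites in the RefSeq table).
Cdkn1a: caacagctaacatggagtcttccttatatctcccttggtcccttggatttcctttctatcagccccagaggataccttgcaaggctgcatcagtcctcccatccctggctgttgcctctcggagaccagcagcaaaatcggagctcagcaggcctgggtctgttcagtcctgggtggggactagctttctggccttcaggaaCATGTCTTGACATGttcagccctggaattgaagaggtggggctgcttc
The match begins 48 bases before this start. The spacing was found in 1 of 14 arrest and feedback genes with a promoter searched and in 0.28% of the 10349 genes.

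CDK inhibitors differed member by member. Of 7 measured, 2 were higher, Cdkn1a and Cdkn2a (1.57), and 1 was lower. The lower one, Cdkn1c (p57), a brake that acts when progenitors leave the cycle, went from 8.95 to 49.2 CPM in Ctrl and from 5.87 to 5.72 CPM in iKO (-2.37). Its rise in Ctrl was lost in iKO, so the differences of p21 and p57 had opposite signs.

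The fall of the cell cycle genes was retained and smaller, mostly by less than 2-fold. All 25 mitosis genes lay above 0 and 1 was higher, with a median difference of 0.63 and median stage changes of -4.09 in Ctrl and -3.54 in iKO. Of 25 DNA replication genes all lay above 0 and 5 were higher (median 0.84, stage changes -3.33 and -2.55). The 1 mitosis gene is 4% of its list, near the 3.71% of all genes. With library totals the medians were 0.42 for mitosis and 0.64 for replication. Cdk1, the kinase of mitotic entry, went from 212 to 7.11 CPM in Ctrl and from 125 to 9.81 CPM in iKO (1.17). Ccnb1, its cyclin, went from 322 to 10.3 CPM in Ctrl and from 197 to 12.7 CPM in iKO (0.98). Both genotypes ended low, and the smaller fall of iKO went with a lower start. Tk1 (1.47), Gins2 (1.18), Cdt1 (1.14), Mcm3 (1.10) and Fen1 (1.03) were the higher replication genes. With library totals only Tk1 of these remained past 2-fold (1.28), and Gins2 was at 0.99, Cdt1 at 0.95, Mcm3 at 0.89 and Fen1 at 0.83. Fen1 and Ccnb1 are named after their values were seen. All 13 genes of homologous recombination and fork repair lay above 0 with none past 2-fold (median 0.55).

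Cdk1 is shown because it was the 1 mitosis gene past 2-fold (1.17, and 0.97 with library totals) and its promoter holds the cell cycle homology region, TTTGAA, which the repressor complex of resting cells is known to use. The 250 bases are chr10:69352913-69353162 (minus strand, GRCm38.p6), with matches in capitals beginning 71 and 15 bases before the start.
Cdk1: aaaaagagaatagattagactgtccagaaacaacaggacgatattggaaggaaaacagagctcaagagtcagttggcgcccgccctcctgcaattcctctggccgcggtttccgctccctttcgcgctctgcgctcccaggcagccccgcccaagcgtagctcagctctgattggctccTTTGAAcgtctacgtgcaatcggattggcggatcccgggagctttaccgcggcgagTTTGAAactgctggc
Searched on both strands, TTTGAA was in 5 of 20 mitosis genes with a promoter (25%), namely Kif11, Top2a, Cdc20, Ccnb2 and Cdk1, and in 12.4% of all 10349 genes. Some other lists held it as often or more, such as astrocyte genes (25%) and Y complex nucleoporins (42.9%), and others less often. It was in 15% of DNA replication genes and in 13.2% of the higher genes with a promoter.

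Genes of the amino acid response ended higher in iKO, in part by a gained rise. ATF4 is translated when amino acids run short or the endoplasmic reticulum is stressed, and it raises amino acid transporters, synthesis enzymes and its own brakes. Of 26 genes, 11 were higher and none lower (median 0.95), and 23 lay above 0. The median stage change was -0.62 in Ctrl and 0.23 in iKO.

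Slc3a2, the heavy chain of amino acid transporters, went from 275 to 209 CPM in Ctrl and from 303 to 982 CPM in iKO (difference 2.09). Atf5, a related transcription factor, went from 65.1 to 38.8 CPM in Ctrl and from 69.2 to 192 CPM in iKO (2.19). Chac1, which degrades glutathione, went from 2.26 to 1.79 CPM in Ctrl and from 3.44 to 14.9 CPM in iKO (2.07, named after its values were seen). These genes rose in iKO alone, from a similar start in both genotypes.

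Mthfd2, a mitochondrial folate enzyme, went from 59.8 to 4.68 CPM in Ctrl and from 43.1 to 24.2 CPM in iKO (2.61). Eif4ebp1, a brake on translation that mTORC1 controls, went from 50.4 to 8.46 CPM in Ctrl and from 44.8 to 40.1 CPM in iKO (2.29). Here Ctrl fell and iKO did not. Atf4 itself differed by 0.88, under 2-fold, and Ddit4, an mTORC1 inhibitor, had the lowest value of the list (-0.89). Both are named after their values were seen.

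The Chac1 promoter holds the 8-letter core TGATGNAA, which joins a C/EBP site to an ATF site (N is any base). It lies here on the opposite strand, so the capitals read as its reverse complement, in chr2:119350992-119351241 (plus strand, GRCm38.p6).
Chac1: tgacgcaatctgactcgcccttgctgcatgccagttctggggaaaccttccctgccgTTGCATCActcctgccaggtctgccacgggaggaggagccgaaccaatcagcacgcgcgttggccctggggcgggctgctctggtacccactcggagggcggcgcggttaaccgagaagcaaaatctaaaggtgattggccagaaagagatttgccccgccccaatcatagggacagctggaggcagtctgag
The match begins 193 bases before the start. On both strands the core was in 6 of 24 genes of the list with a promoter (25%), Vldlr, Slc7a11, Pck2, Nupr1, Asns and Chac1, and in 2.36% of all 10349 genes. It was in 3.85% of the 364 higher genes with a promoter and in 2.92% of the lower ones. Cytosolic tRNA synthetases, with none past 2-fold, held the core in 23.1%, and young neuron genes in 15.4%. The remaining lists held it less often or not at all. Of the 6 carriers, Asns (1.33) and Chac1 were past 2-fold, Nupr1 differed by 0.92 and Vldlr by -0.32. These carriers are named after their values were seen.

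**Figure D4:**
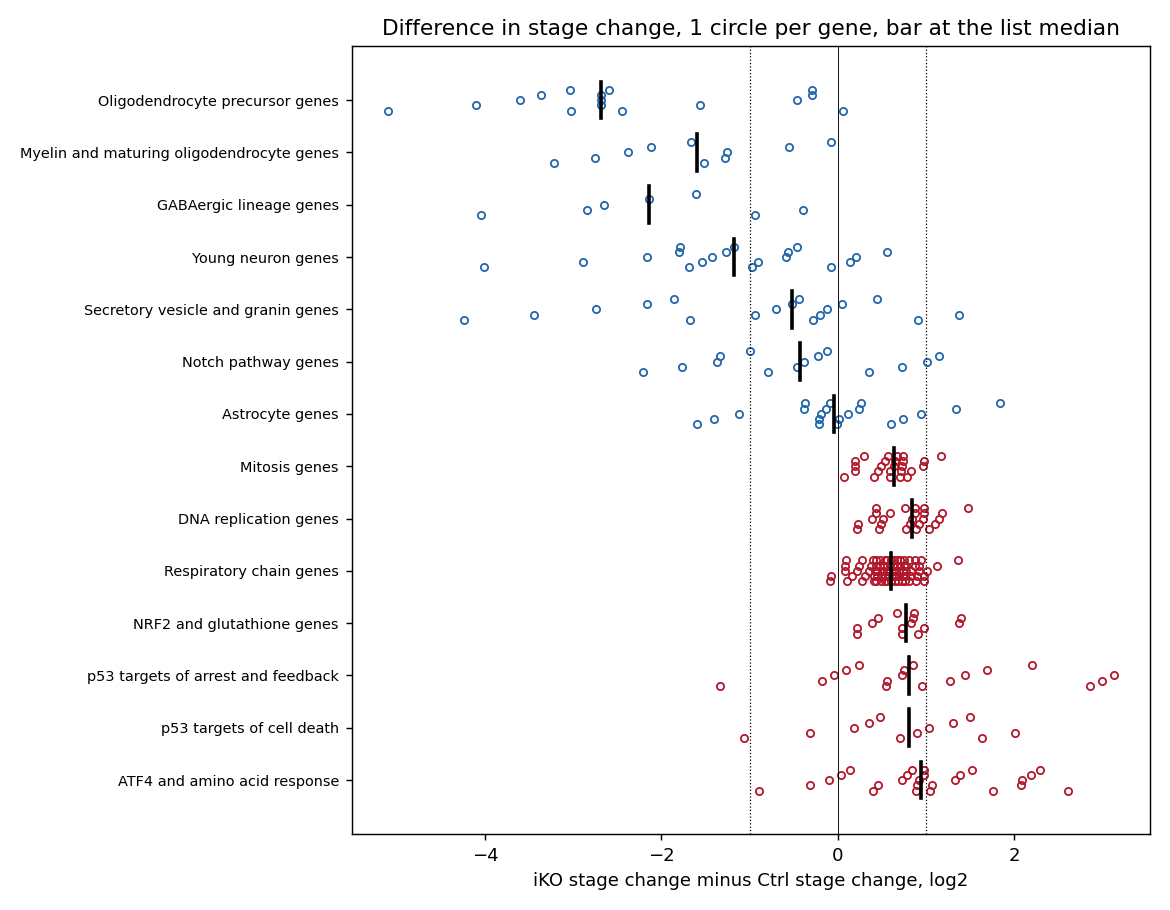
Difference in stage change (iKO minus Ctrl, log2) for every measured gene of 14 lists, 1 circle per gene, with a black bar at the list median and dotted lines at a 2-fold difference. Precursor genes spread from -5.10 to 0.06, while all 25 mitosis genes and all 25 replication genes lie between 0.07 and 1.47.

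All 14 genes of the NRF2 and glutathione list, which guard against oxidants, lay above 0 and 2 were higher (median 0.77). Hmox1, which breaks down heme, went from 43.4 to 75.5 CPM in Ctrl and from 85.2 to 383 CPM in iKO (1.37). Nqo1, a quinone reductase, went from 15.6 to 19.4 CPM in Ctrl and from 23.4 to 77.3 CPM in iKO (1.39). Both rose in iKO and stayed within 2-fold in Ctrl.

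Of 25 glycolysis and hypoxia genes, 4 were higher and none lower (median 0.76), and 22 lay above 0. Median stage changes were -0.74 in Ctrl and 0.06 in iKO. Tpi1, a glycolytic enzyme, went from 249 to 105 CPM in Ctrl and from 262 to 268 CPM in iKO (1.27). Its fall in Ctrl was absent in iKO. Slc2a1, the glucose transporter GLUT1 (1.08), Ldha (1.05) and Ndrg1 (1.42) were the other higher genes.

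Respiratory chain genes shifted together, most by less than 2-fold. Of 80 measured, 78 lay above 0 and 3 were higher (3.75%, against 3.71% of all genes), with a median of 0.60 and median stage changes of -0.61 in Ctrl and -0.04 in iKO. Cyc1, cytochrome c1, went from 247 to 122 CPM in Ctrl and from 244 to 243 CPM in iKO (1.01). The day 3 Ctrl library was lowest and the others lay together. Atp5g3, a subunit of the ATP synthase (1.12), and Cox6b2, of complex IV (1.36), were the others. With library totals Cyc1 (0.80) and Atp5g3 (0.91) were under 2-fold, and the list's median was 0.39, against -0.13 over all genes.

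Feedback genes of growth factor signalling went both ways. ERK feedback genes are raised by EGF and bFGF signalling and drop when the factors go. Of 16 genes 3 were higher and 3 lower (median 0.59). Dusp4 and Dusp6, phosphatases of ERK, differed by 1.67 and 1.64, and Spry1, an inhibitor of receptor signalling, by 1.31. Dusp6 went from 309 to 53.4 CPM in Ctrl and from 438 to 240 CPM in iKO, a fall in Ctrl and none in iKO. Lower were Il17rd (-1.57), Phlda1 (-1.41) and Etv1 (-1.09). Of 11 immediate early genes 4 were higher and none lower (median 0.73), and each of Arc, Ier3, Junb and Egr1 fell in Ctrl. Arc, Egr1 and Ier3 fell in iKO too, by less (19.4-fold, 6.8-fold and 2.18-fold), and only Junb lost its fall. Spry1 and Etv1 are named after their values were seen.

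A fall was lost for 3 insulin-like growth factor binding proteins, secreted proteins that hold IGF. Igfbp3 went from 964 to 232 CPM in Ctrl and from 1551 to 1549 CPM in iKO (2.05, interval 2.0 to 2.11). The iKO level was equal at both days while Ctrl fell. Igfbp4 went from 125 to 24.1 CPM in Ctrl and from 127 to 108 CPM in iKO (2.10), and Igfbp2 differed by 1.34. These were the 3 higher genes among 11 of the IGF list, and none was lower. Apln, a secreted peptide and the gene with the highest signed difference, went from 278 to 3.13 CPM in Ctrl and from 235 to 42.2 CPM in iKO (3.63, interval 3.62 to 4.39). Both genotypes fell, Ctrl 88.7-fold and iKO 5.55-fold. Anxa3, an annexin, did likewise, going from 332 to 2.84 CPM in Ctrl and from 315 to 27.7 CPM in iKO (2.98).

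BMP signalling genes, which favour astrocytes in this setting, had 5 higher and 1 lower among 13 (median 0.67). Id1, a BMP target that blocks proneural factors, went from 21.0 to 18.2 CPM in Ctrl and from 29.1 to 69.3 CPM in iKO (1.42). Smad9, a BMP signal transducer, went from 3.23 to 6.10 CPM in Ctrl and from 4.34 to 28.2 CPM in iKO (1.71). Each gained a rise in iKO that Ctrl did not show. Id3 (1.34), Bmp7 (1.05) and Bmp2 (1.16) were the others, but Bmp2 had no count in Ctrl at day 0 and changed sign with a pseudocount of 0.1 CPM. The lower gene was the ligand Bmp4 (-2.33), going from 0.0492 to 6.16 CPM in Ctrl and from 0.0927 to 0.478 CPM in iKO. Its counting interval spanned -10.49 to -0.12. Among 21 interferon and MHC class I genes 3 were higher and none lower, Ifit3 (1.55), Gbp3 (1.26) and Bst2 (1.16). Bmp2 and Bmp7 are named after their values were seen.

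Several large groups had few members or none past 2-fold. Of 82 cytosolic ribosomal proteins 1 was higher, Rps27l (1.07), a p53-regulated paralog, and none lower. Their median difference was -0.13 and their median stage changes were -1.27 in Ctrl and -1.40 in iKO. None of 23 cholesterol synthesis genes passed 2-fold (median -0.19), nor any of 18 ER chaperone and unfolded protein genes (0.03), 38 proteasome subunits (0.27), 27 ribosome biogenesis genes (0.27) or 23 lysosome and autophagy genes (0.16). The ER and lysosome medians had the other sign with library totals and deposited FPKM. None of 27 GATOR, Rag and mTORC1 genes passed 2-fold either (0.08, other sign under the same settings). Of 10 Y complex nucleoporins, partners of Seh1 in the pore, none passed 2-fold. The 9 other than Seh1l lay above 0, and the list's median was 0.42. Among 18 other nucleoporins Aaas was higher (1.04), 5.56% of the list against 3.71% of all genes. Of 16 neural stem and progenitor genes 1 was higher, Prom1 (1.57), and 1 lower, Sox3 (-1.06). Each is 6.25% of the list, near the 3.71% higher and 5.5% lower of all genes. Sox2, a core stem cell factor, differed by 0.04. With a median of 0.08 in these 4 libraries, the stem cell list gave no direction, since 2 settings had the other sign.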

How the data were processed

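Total RNA from 4 cultures, 1 per group, was sequenced. The authors deposited expected counts and an expression value for 55122 transcripts per library, aligned and quantified with HISAT, Bowtie2 and StringTie on mm10, per the submitters' processing notes, with no version or order given. The second value is taken as FPKM as deposited, although the file headers name no unit, and it served only as an alternative. The authors' deposited tables of 2-library comparisons were not used. Symbols came from RefSeq for 17498 of 17621 gene IDs, and coordinates and promoters from RefSeq GRCm38.p6.

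Expected counts were summed per gene, and rounded for scaling and intervals. Scaling used edgeR 4.0.16 TMM factors (0.962 to 1.06) under R 4.3.3, with a pseudocount of 1 CPM. Intervals were exact conditional 95% intervals from scipy 1.17.1. The calculation was tested on simulated data. Low counts limit precision: the median interval spanned 1.09 on either side for genes at 1 to 5 CPM and 0.13 above 50 CPM, in log2 units. Alternatives were library totals, DESeq2 1.42.0 size factors, TMM without ribosomal protein and histone genes, pseudocounts of 0.1 and 5 CPM, no minimum, a minimum of 5 CPM, and FPKM.

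The comparison, the 61 gene lists and the motifs were chosen with earlier results of these data known. Genes named are Seh1l, Cdkn1a, marker genes of the cell types, the 15 highest and 15 lowest differences in part, and up to 4 members per list with the largest difference past 2-fold. Others are marked as named after their values were seen. Of 12 motifs searched, the 4 shown were chosen with the data in view. Some genes of the lists are not reported here by name.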

Additional observations from a re-analysis of the deposited data

Results flagged for a closer look

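In these genes the 2 genotypes passed 2-fold in opposite directions between day 0 and day 3, which is what singled them out. With 1 library per group the difference was not tested. Genes that rose in Ctrl and fell in iKO were Scg2 (difference -4.24), Dlx1 (-4.05), Celf3 (-3.79), Rab3c (-3.45), Celsr3 (-3.44), Scrt1 (-3.44), Pdgfra (-3.02), Dlx2 (-2.84), Sp9 (-2.65), Dll3 (-2.21) and Gad2 (-2.14), described above. The medians of the GABAergic list went from 1.37 in Ctrl to -1.0 in iKO, with a median difference of -2.14, although not each member turned: Gad1 lost its rise without a fall.

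Further genes with that pattern were Bcl11b, a zinc finger factor of neurons (-2.69), Clstn3, a synaptic adhesion protein (-2.26), the receptors Gpr158 (-2.78) and Gpr83 (-2.39), Iqsec3, a protein of inhibitory synapses (-2.90), Lzts1 (-2.42), Nacad (-2.89) and Sh3gl3, an endophilin of synaptic vesicles (-2.72). Nacad went from 8.56 to 29.5 CPM in Ctrl and from 9.22 to 3.39 CPM in iKO. Several others stayed below 10 CPM in most libraries, where counting error is wide. Gm14305 (-2.92) was at 0 CPM in Ctrl at day 0 and belongs to a family of near copies, so its reads are uncertain.

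Falling in Ctrl and rising in iKO were Klhdc7a, at 13.1 to 5.77 CPM and 40.7 to 93.8 CPM (2.24), and Gm29801 (2.54), which was at 0 CPM in Ctrl at day 3.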

How the results depend on the processing

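No paired analysis was possible because each group holds 1 library, and for the same reason no library could be left out in turn. Of the 8 alternatives 7 changed one choice at a time, while the deposited FPKM differed in unit, length correction and scaling together. Library totals lowered the median over all genes from 0.06 to -0.13. The 481 higher genes became 296 with library totals, 229 with a pseudocount of 5 CPM and 219 with FPKM, and the 714 lower genes 367 with that pseudocount. Smaller, lost or turned rises went from 437 to 234 with it. Smaller, lost or turned falls went from 275 to 175 with totals, 125 with 5 CPM and 128 with FPKM. Gained or larger rises went from 121 to 79, 60 and 58 in the same order and to 69 with a minimum of 5 CPM. Gained or larger falls went from 149 to 230 with a pseudocount of 0.1 CPM and 50 with 5 CPM.

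Of 56 list medians, 43 kept their sign in all alternatives. With library totals and with FPKM, in that order, medians were 0.42 and 0.47 for mitosis, 0.38 and 0.41 for recombination, 0.23 and 0.23 for tRNA synthetases, -0.18 and -0.17 for ER chaperones, -0.40 and -0.41 for cholesterol, -0.26 and -0.26 for fatty acid synthesis, 0.07 and 0.09 for ribosome biogenesis, -0.34 and -0.34 for ribosomal proteins, 0.39 and 0.39 for the respiratory chain, 0.07 and 0.06 for the proteasome, 0.22 and 0.22 for the Y complex, 0.10 and 0.15 for other nucleoporins, and -0.12 and -0.11 for GATOR genes. The astrocyte median was -0.25 with totals and the glycolysis median 0.51 with FPKM. The precursor median lay between -2.86 and -2.28, and relative to all genes the ATF4 median lay between 0.68 and 0.93. Of 235 genes examined singly, 192 passed 2-fold, and 121 of these did so in every alternative that measured them. Some low genes among the 121 were left out by the minimum of 5 CPM. Of these 192, Bmp2 alone changed sign, to -0.16 with a pseudocount of 0.1 CPM. Beyond the shift over all genes that totals bring, the cause was not tested.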

Other observations

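Some gene families outside the lists above were gathered after their values were seen. Of 8 measured annexins, calcium-dependent membrane-binding proteins, 3 were higher and none lower: Anxa3 (2.98), Anxa11 (1.79) and Anxa2 (1.32). Their median stage change was -0.29 in Ctrl and 0.70 in iKO. Anxa2 went from 35.2 to 12.7 CPM in Ctrl and from 50.7 to 47.9 CPM in iKO, a fall that iKO did not share. Among 6 CELF splicing factors, Celf4 (-1.87) and Celf6 (-1.04) were lower beside Celf3, while Celf1 (0.14), Celf2 (0.02) and Celf5 (0.34) were not.

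Peroxiredoxins, enzymes that reduce peroxides, gave none past 2-fold and 5 of 6 above 0 (median 0.69). Prdx6 went from 262 to 705 CPM in Ctrl and from 342 to 1681 CPM in iKO (0.87). Prdx2 differed by -0.10.

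Genes of heart muscle were detected at low levels. Of 9 measured 5 were higher, Myl2 (1.92), Mb (1.82), Tnnt2 (1.61), Casq2 (1.36) and Myh6 (1.25), against 3.71% of all genes. None of the 5 stayed past 2-fold in every alternative, with lowest values of 0.61 to 0.76. Actc1 went the other way (-0.87), under 2-fold. The list summed to 27.2 and 28.0 CPM in Ctrl at the 2 days and to 20.6 and 44.6 CPM in iKO. Mb, myoglobin, went from 1.18 to 0.647 CPM in Ctrl and from 0.964 to 4.24 CPM in iKO.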
